A study of Arabidopsis thaliana with 8 samples.

Results

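The interaction of the *mips1* and *somi2* mutations asks, gene by gene, whether the response of Arabidopsis rosette leaves to loss of MIPS1 was the same with and without a working BIG gene. It was computed on log2 counts as the *mips1* effect among plants with *somi2* (*mips1 somi2* minus *somi2*) minus its effect in Col-0 (*mips1* minus Col-0), so that 0 means that both mutations simply add up. All 8 libraries of the series enter it, with 2 libraries for each of the 4 lines (wild-type Col-0, both single mutants and the double mutant), and 23916 of the 37336 listed genes held enough counts to be tested. Of these, 14840 had an interaction that passed the test (62.1% of the tested genes, Benjamini-Hochberg adjusted p under 0.05 in the quasi-likelihood test of edgeR). The genes of interest are the 3370 among them (14.1% of the tested genes) in which *mips1 somi2* also differed from each single mutant, so that its level was neither that of *mips1*, nor that of *somi2*, nor the sum of both effects.

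The plants were of the Col-0 accession. The *mips1* line carries a T-DNA insertion in *MIPS1*. The labels call the second mutation only *big*, and the study's text describes it as *somi2*, a single-base deletion in *BIG* that brings an early stop codon, found as a suppressor of *mips1*. *mips1 somi2* carries both. By the labels all plants spent 1 week in vitro, 2 weeks in soil under short days of 8 h light and 5 days under long days of 16 h light, and the study's methods for this assay give other lengths. RNA came from pooled rosette leaves of several plants, and nothing says that the 2 libraries of a line came from separate cultures, so p-values measure the spread between these libraries, which may be technical. Levels are given as CPM, the gene's count as parts of 1e+06 counts of its library, with library sizes scaled by the TMM method. In bulk leaves, fewer cells of a type and less RNA per cell cannot be told apart.

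MIPS1 makes inositol phosphate, the precursor of myo-inositol, from glucose 6-phosphate. Plants without it are known for lesions on their leaves that need salicylic acid and appear under long days. BIG is a very large calossin-like protein of unknown molecular function. It has been linked to membrane trafficking and auxin transport, and to light, clock and sugar or CO2 responses. When 2 mutations act in 1 pathway or 1 covers the other, the double mutant is not the sum of both, and the interaction term measures that departure.

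Total counts ran from 50123257 to 104501879 per library. The limit of detection was set at 3 counts, which is 0.0273 to 0.0716 CPM. The replicates of Col-0 differed more from each other than those of the other lines by a chi-square on counts scaled by library totals alone. It averaged 128 per gene against 4.95 to 10.8. Abundant genes can dominate this average, so it is not the spread of a typical gene. The organelle share was 2.67% and 0.926% in the Col-0 libraries, against 0.644% to 1.61% in the other libraries. Leaf markers were abundant, from 14412 to 47319 CPM in sum. The root markers *WOX5*, *CASP1* and *NRT2.1* summed to 0.478 to 1.22 CPM.

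The mutated genes were looked at first. *MIPS1* (AT4G39800, chromosome 4, 18469255 to 18472048 in TAIR10) had 119.7 and 152 CPM in the Col-0 libraries, 104 and 94.7 in those of *somi2*, 5.3 and 6.12 in *mips1*, and 9.85 and 10.8 in the double mutant. Both *mips1* lines lay far below both lines with the wild-type gene, without overlap. The residual level was higher in *mips1 somi2* than in *mips1*, and *somi2* lay below Col-0. The interaction of *MIPS1* itself was 1.301 (SE 0.17, adjusted p = 4.7e-05). *BIG* (AT3G02260, chromosome 3, 430877 to 448680) had 113 and 132 CPM in the Col-0 libraries, 57.2 and 62.1 in those of *somi2*, 205 and 212 in *mips1*, and 93.4 and 89.9 in the double mutant. *somi2* lowered it in both backgrounds, and its interaction of -0.15 (SE 0.11, adjusted p = 0.27) did not pass the test.

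The response to *mips1* was large in Col-0 and small in *somi2*. In Col-0, *mips1* changed 17479 genes (73.1% of the tested genes), 8602 of them up and 8877 down, with a median absolute log2 effect of 0.63. In *somi2*, the same mutation changed 4606 genes (19.3%), 2023 up and 2583 down, with a median of 0.16. The 2 effects use different libraries. The interaction is the test of their difference, and it was positive in 7377 genes (30.8% of the tested genes) and negative in 7463 (31.2%). A positive value means that *mips1* lowered the gene more, or raised it less, in Col-0 than in *somi2*, and a negative value the opposite. Over all tested genes the median was 0.02, with quartiles at -0.62 and 0.62. An interaction of at least 1 on the log2 scale and past the test was found in 7002 genes (29.3%), 3097 positive (12.9%) and 3905 negative (16.3%). In 17676 genes (73.9%) the sign was the same in all 16 choices of 1 library per line, and this held for 14830 of the called genes (99.9%). Scaled by library size alone, the median of all genes was -0.20 and 35.9% of the calls were positive, against 49.7% here. The gene just inside the threshold was *AT1G65485* and the one just outside was *UBQ5*, with adjusted p of 0.04998 and 0.05002.

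**Figure D1:**
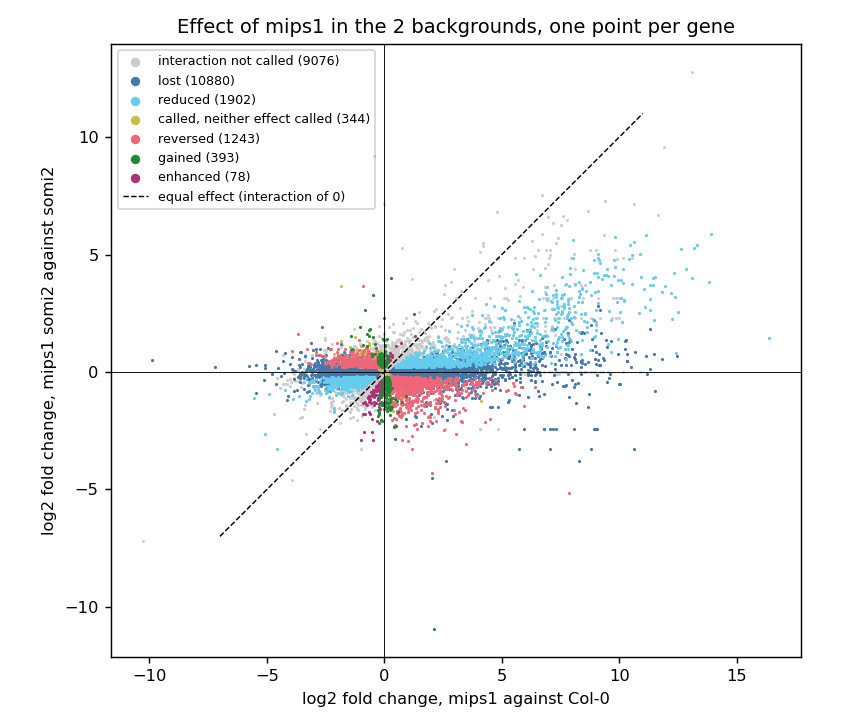
Effect of *mips1* in *somi2* (vertical axis, log2) against its effect in Col-0 (horizontal axis, log2) for each tested gene, coloured by class of response. Genes on the dashed diagonal have an interaction of 0, and the 10880 genes of the lost class lie along the horizontal line.

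The called genes were sorted by what became of the *mips1* effect. It was lost in 10880 genes (73.3% of the called genes), meaning called in Col-0 and no longer called in *somi2*. It was reduced in 1902 genes (12.8%), in which it kept its direction and a median of 25.9% of its log2 size. It was reversed in 1243 genes (8.38%), 900 of them raised by *mips1* in Col-0 and lowered by it in *somi2*, and 343 the other way round. In 393 genes (2.65%) the effect was gained, called only in *somi2*. It was enhanced in 78 genes (0.526%), and in 344 (2.32%) neither effect alone was called. Seen from the other side, *somi2* changed 11775 genes in Col-0 and 18663 in *mips1*, with median absolute log2 effects of 0.30 and 0.70. Across the genes, which are not independent replicates, the 2 *mips1* effects had a Pearson r of 0.46 and a Spearman rho of 0.23.

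**Figure D2:**
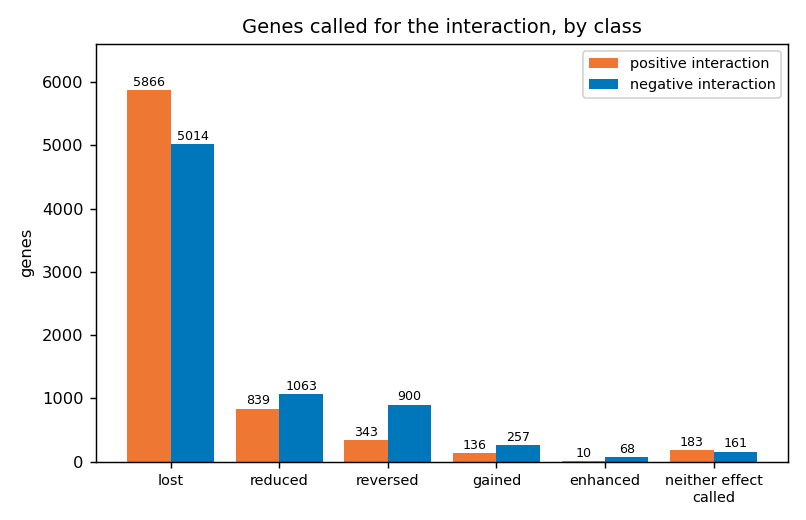
Number of genes with a called interaction (vertical axis) in each class of response, with positive (orange) and negative (blue) interactions side by side. The lost class holds 5866 positive and 5014 negative genes, and the reversed class leans to negative interactions, 900 against 343.

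Of the 3370 genes at neither single mutant's level nor the sum, 1149 had a positive and 2221 a negative interaction. They fell into the reduced (1706), reversed (1225), gained (364) and enhanced (75) classes. *mips1 somi2* lay between both single mutants in 1616 of them. In 1470 it lay outside all 3 other lines, above them in 445 (1.86% of the tested genes) and below them in 1025 (4.29%). The count of 3370 depended on the library. It was 5262 genes without the first Col-0 library, 5149 without the second, 1604 and 1743 without the first or the second *somi2* library, and 1891 and 2023 without the first or the second *mips1 somi2* library. The number outside all lines moved from 1470 to 2222 without the first Col-0 library, to 734 and 758 without the first or the second *somi2* library, and to 839 and 877 without the first or the second *mips1 somi2* library.

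The 10 largest negative interactions belonged to genes that *mips1* raised strongly in Col-0, with log2 effects from 6.39 to 10.54. In *somi2* the effect was much smaller, absent or of the other sign, from -0.65 to 1.69 in 9 of them, while *PR1* still rose by 3.73 on the log2 scale. *DIN2* (AT3G60140, a dark-inducible beta-glucosidase) had 0.692 and 0.753 CPM in the Col-0 libraries, 1.17 and 2.19 in those of *somi2*, 196 and 206 in *mips1*, and 1.1 and 1.21 in the double mutant. Only the *mips1* libraries were high, the other 3 lines all lay at or below 2.19 CPM, and the interaction was -8.63 (SE 0.36, adjusted p = 2.1e-07). *GLYI4* (AT1G15380, a glyoxalase I family protein) had 0.239 and 0.118 CPM in the Col-0 libraries, 0.248 and 0.423 in those of *somi2*, 59.9 and 60.9 in *mips1*, and 0.485 and 0.34 in the double mutant, with the same pattern and an interaction of -8.23 (SE 0.44, adjusted p = 1.2e-08). *DLO1* (AT4G10500), an oxygenase that hydroxylates salicylic acid, had 0.382 and 0.353 CPM in the Col-0 libraries, 1.23 and 1.06 in those of *somi2*, 182 and 183 in *mips1*, and 3.62 and 3.06 in the double mutant. Here *mips1 somi2* lay above *somi2* in both libraries yet far under *mips1*, and the interaction was -7.42 (SE 0.19, adjusted p = 2.1e-11). *ASPGB1* (AT3G16150, an asparaginase) had 0.979 and 0.906 CPM in the Col-0 libraries, 2.61 and 2.36 in those of *somi2*, 79.8 and 77.4 in *mips1*, and 1.42 and 1.77 in the double mutant. Its direction turned: *mips1* raised it by 6.39 on the log2 scale in Col-0 and lowered it in *somi2*, with a log2 effect of -0.65 (adjusted p = 0.0016). The interactions of the others were -7.58 for *AT3G15536*, -7.18 for *LUP5* (a terpenoid cyclase), -7.09 for *NAC090* (a NAC transcription factor), -6.93 for *PR2*, -6.83 for *AT4G15610* and -6.81 for *PR1*.

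The 10 largest positive interactions came from genes that *mips1* lowered in Col-0. *SAUR22* (AT5G18050), a small auxin-up RNA, had 15.9 and 14.8 CPM in the Col-0 libraries, 3.86 and 3.64 in those of *somi2*, 1.76 and 1.45 in *mips1*, and 4.35 and 4.47 in the double mutant. *somi2* was below Col-0, *mips1* lower still, and *mips1 somi2* did not differ from *somi2* by the test, with an interaction of 3.50 (SE 0.16, adjusted p = 2.0e-09). *AT1G29490*, of the same family, had an interaction of 3.99, and *YUC9*, a flavin monooxygenase of auxin synthesis, of 3.38. *bHLH071* (AT5G46690), a basic helix-loop-helix factor, had 18.5 and 20.7 CPM in the Col-0 libraries, 19.6 and 18.9 in those of *somi2*, 2.05 and 2.39 in *mips1*, and 24.7 and 24.2 in the double mutant. Only *mips1* was low, *mips1 somi2* lay slightly above the other lines, and the interaction was 3.48 (SE 0.12, adjusted p = 2.1e-10). *AT4G02850* (PhzC/PhzF family) had 10.8 and 9.4 CPM in the Col-0 libraries, 18.2 and 19 in those of *somi2*, 0.825 and 0.847 in *mips1*, and 22.4 and 20.7 in the double mutant, with an interaction of 3.79 (SE 0.14, adjusted p = 2.7e-10). Interactions of 3.73 (*NIG1*), 3.65 (*E13L3*), 3.60 (*AT1G06980*), 3.38 (*GIS*, a zinc finger factor of trichome formation) and 3.35 (*AT3G15310*) complete the group.

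**Figure D3:**
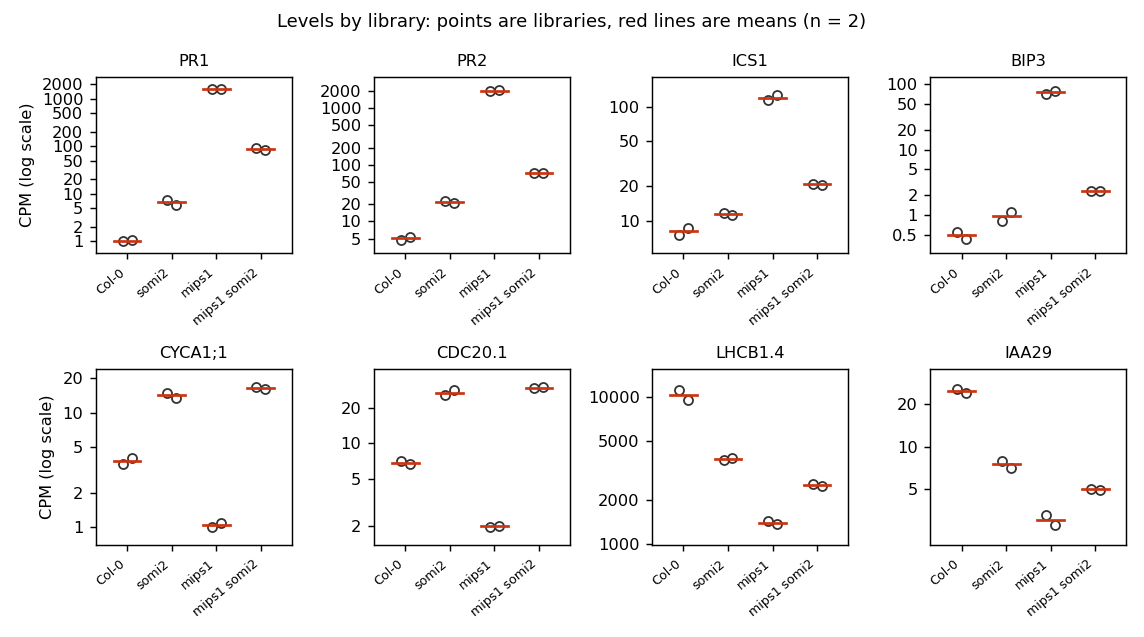
CPM on a log axis in each of the 8 libraries (points) by line, with the mean of 2 libraries as a red line, for genes described in the text. The strong *mips1* response in Col-0 and its smaller or missing counterpart in *somi2* show as the distance from Col-0 to *mips1* and from *somi2* to *mips1 somi2*.

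The gene lists below were chosen with earlier results of these data known, so their directions are not independent evidence. Genes of salicylic acid synthesis, perception and defence output were raised by *mips1* in Col-0 and far less in *somi2*. Of 28 genes, 27 were called negative and 1 positive, beside 31.2% and 30.8% of all tested genes. The list's median interaction was -2.95, against 0.02 over all tested genes. The median effect of *mips1* was 3.30 in Col-0 and 0.25 in *somi2*. *PR1* (AT2G14610, chromosome 2, 6241640 to 6242541), the classical marker of the salicylic acid response, had 1.03 and 1.06 CPM in the Col-0 libraries, 7.37 and 5.85 in those of *somi2*, 1561 and 1555 in *mips1*, and 91.6 and 84.3 in the double mutant. The *mips1* libraries were highest, *mips1 somi2* second, and Col-0 lowest, with no overlap between lines. The effect of *mips1* on *PR1* fell from 10.54 in Col-0 to 3.73 in *somi2*, an interaction of -6.81 (SE 0.16, adjusted p = 1.3e-11). *PR2* (AT3G57260), a beta-1,3-glucanase, had 4.7 and 5.33 CPM in the Col-0 libraries, 23.1 and 21.1 in those of *somi2*, 1938 and 2046 in *mips1*, and 72.5 and 70.7 in the double mutant. *PR5* (AT1G75040), a thaumatin-like protein, had 1.74 and 1.61 CPM in the Col-0 libraries, 8.05 and 7.32 in those of *somi2*, 646 and 676 in *mips1*, and 35.1 and 31.3 in the double mutant. Both kept the order of *PR1*. The response was reduced in 12 of the genes, lost in 8 and reversed in 8. Of all called genes, 12.8% were reduced, 73.3% lost and 8.38% reversed.

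*ICS1* (AT1G74710), the isochorismate synthase that starts salicylic acid synthesis, had 7.45 and 8.61 CPM in the Col-0 libraries, 11.6 and 11.2 in those of *somi2*, 114 and 126 in *mips1*, and 20.8 and 20.6 in the double mutant, and the effect of *mips1* on it was 3.90 in Col-0 and 0.86 in *somi2* (adjusted p = 1.0e-05). *PBS3* (AT5G13320), which conjugates isochorismate to glutamate, had 1.81 and 2.49 CPM in the Col-0 libraries, 2.51 and 2.68 in those of *somi2*, 192 and 219 in *mips1*, and 15.7 and 14 in the double mutant, with an interaction of -4.01 (SE 0.18, adjusted p = 2.6e-09). *EDS1* and *PAD4*, partner lipase-like proteins upstream of salicylic acid, had interactions of -2.41 and -2.24, with *mips1* effects in *somi2* of -0.03 and -0.10 that were not called. *CBP60g* (AT5G26920), a transcription factor that activates *ICS1*, had 13.3 and 12 CPM in the Col-0 libraries, 14.3 and 14.8 in those of *somi2*, 288 and 293 in *mips1*, and 12.4 and 11.9 in the double mutant, so that *mips1 somi2* lay under *somi2*. Its interaction was -4.79 (SE 0.10, adjusted p = 1.1e-11). *WRKY70* (AT3G56400) had 119.6 and 121 CPM in the Col-0 libraries, 125 and 119 in those of *somi2*, 427 and 452 in *mips1*, and 59.2 and 64 in the double mutant. It was high only in *mips1*, *mips1 somi2* lay below all 3 other lines, and the interaction was -2.86. The *mips1 somi2* libraries were also lowest for the salicylic acid receptors *NPR1*, *NPR3* and *NPR4* and for *ADR1-L1*, with interactions from -2.68 to -1.40. *mips1* still raised 13 of the 28 genes in *somi2* and lowered 7, beside 19.3% of all tested genes changed in either direction. The exception in sign was *EPS1*, with an interaction of 0.84 at 4.05 to 8.09 CPM. In the *mips1 somi2* libraries the N-hydroxypipecolic acid genes *FMO1* and *ALD1* stayed well above *somi2*. *FMO1* had 0.143 and 0.0235 CPM in the Col-0 libraries, 0.469 and 0.317 in those of *somi2*, 91.7 and 104 in *mips1*, and 12.4 and 13.1 in the double mutant. *ALD1* had 0.31 and 0.224 CPM in the Col-0 libraries, 0.373 and 0.317 in those of *somi2*, 50.01 and 59.99 in *mips1*, and 4.64 and 4.63 in the double mutant. The lowest values of both rest on few counts.

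Of 17 genes of cell death and the oxidative burst, 13 were called negative and 1 positive, beside 31.2% and 30.8% of all tested genes. The list's median was -1.66. *BAP1* (AT3G61190), an inhibitor of programmed cell death, had 1.58 and 1.46 CPM in the Col-0 libraries, 3.6 and 3.55 in those of *somi2*, 42.9 and 44.1 in *mips1*, and 2.37 and 2.74 in the double mutant, with an interaction of -5.34 (SE 0.14, adjusted p = 2.1e-11). *RBOHD* (AT5G47910), the NADPH oxidase of the defence burst, had 28.7 and 34 CPM in the Col-0 libraries, 73.5 and 71 in those of *somi2*, 186 and 190.4 in *mips1*, and 72.3 and 68.1 in the double mutant. *somi2* and *mips1 somi2* overlapped, and both lay between Col-0 and *mips1*. *ACD6*, *MPK3*, *BIK1* and *MC1* lay below all 3 other lines in *mips1 somi2*, with interactions of -2.80, -2.36, -2.21 and -1.29. The metacaspase gene *MC8* is given without a fold, since Col-0 was at or under the limit of detection. It had 0 and 0.0118 CPM in the Col-0 libraries, 0.11 and 0.0907 in those of *somi2*, 7.6 and 7.88 in *mips1*, and 1.41 and 1.23 in the double mutant. *CAT2*, the main leaf catalase, was the positive one, with 0.42. *APX1*, *CPSF30* and *HXK1* were not called, with interactions of -0.23, 0.14 and -0.12.

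Camalexin and indole glucosinolate genes followed, with 8 of 10 called negative and 1 positive, beside 31.2% and 30.8% of all tested genes. The list's median was -3.30. *PAD3* (AT3G26830), the last enzyme of camalexin synthesis, had 0.597 and 0.918 CPM in the Col-0 libraries, 1.02 and 1.09 in those of *somi2*, 197 and 228 in *mips1*, and 52.1 and 52.7 in the double mutant. It kept a large response, with a *mips1* effect of 8.05 in Col-0 and 5.63 in *somi2* and an interaction of -2.42 (SE 0.20, adjusted p = 5.6e-07). *CYP71A13* (AT2G30770) had 2.77 and 1.71 CPM in the Col-0 libraries, 17.2 and 18.5 in those of *somi2*, 97.5 and 116 in *mips1*, and 64.5 and 63.9 in the double mutant, and its near copy *CYP71A12* an interaction of -4.91. Reads that map to several places were counted, so near copies such as these may share reads. Of their regulators, *WRKY33* (AT2G38470) had 44.9 and 41.4 CPM in the Col-0 libraries, 68.7 and 67.2 in those of *somi2*, 288 and 283 in *mips1*, and 33.3 and 28.8 in the double mutant, and *mips1 somi2* lay below all 3 other lines, as for *MYB51*, with interactions of -3.85 and -3.40. *MYB34* (AT5G60890), an activator of indole glucosinolate synthesis, was the positive gene, with 43.1 and 40.5 CPM in the Col-0 libraries, 27.8 and 27.7 in those of *somi2*, 8.19 and 7.9 in *mips1*, and 37.9 and 38.3 in the double mutant. It was low in *mips1* alone and gave 2.84 (SE 0.09, adjusted p = 1.2e-10). For *MYB122*, at 0 in both Col-0 libraries, the double mutant had 0.376 and 0.399 CPM, beside 0.069 and 0.0907 in *somi2* and 8.01 and 8.31 in *mips1*. The aliphatic glucosinolate list had 8 negative and 2 positive of 11 genes and a median of -0.75. All 10 called genes were in the lost class, which held 73.3% of all called genes. *MAM3* had an interaction of -1.55, and the positive ones were the regulators *MYB28* (0.96) and *MYB29* (0.93).

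Of 27 jasmonate genes, 22 were called negative and 2 positive, beside 31.2% and 30.8% of all tested genes. The median of the 27 was -1.22. In 14 the response was reduced rather than lost, beside 12.8% reduced among all called genes. *JAZ7* (AT2G34600), a repressor of jasmonate signalling, had 0.406 and 0.271 CPM in the Col-0 libraries, 2.37 and 2.4 in those of *somi2*, 12.2 and 10.9 in *mips1*, and 1.43 and 1.26 in the double mutant, and *mips1 somi2* lay between Col-0 and *somi2* with an interaction of -6.00 (SE 0.23, adjusted p = 4.3e-10). *LOX4* and *JAZ5* had -3.59 and -3.26, and the defensin *PDF1.2* had -3.18. *VSP1*, *VSP2* and *JAZ10* lay above all 3 other lines in *mips1 somi2* with negative interactions, and both single mutants lay above Col-0. *AOS*, *JAR1* and *JAZ3* were not called, with -0.03, -0.15 and -0.12.

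All 16 genes for chaperones of the endoplasmic reticulum and the unfolded protein response were called negative, beside 31.2% of all tested genes. The list's median was -1.79. The median *mips1* effect was 2.13 in Col-0 and 0.31 in *somi2*, and *mips1* still raised 10 of them in *somi2*. There it changed 19.3% of all tested genes, in either direction. *BIP3* (AT1G09080), the stress-induced copy of the lumenal HSP70, had 0.549 and 0.424 CPM in the Col-0 libraries, 0.801 and 1.1 in those of *somi2*, 71.8 and 79.6 in *mips1*, and 2.33 and 2.32 in the double mutant, with an interaction of -6.04 (SE 0.23, adjusted p = 3.6e-10). *bZIP60* (AT1G42990), the transcription factor activated by IRE1, had 27.8 and 29.7 CPM in the Col-0 libraries, 33.5 and 34.9 in those of *somi2*, 137 and 143 in *mips1*, and 35.4 and 38.4 in the double mutant. Only *mips1* stood apart, and the interaction was -2.17 (SE 0.10, adjusted p = 1.6e-09). *PDIL1-2*, *CRT3* and *BIP2* had -2.66, -2.58 and -1.97, with *BIP1* and *BIP2* being near copies. The smallest value was that of *IRE1B*, -0.25.

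Among 10 senescence and chlorophyll breakdown genes that passed the count filter, of 11 listed, 9 were negative and 1 positive. The shares of all tested genes were 31.2% and 30.8%, and the list's median was -1.25. *SAG13* (AT2G29350) had 4.11 and 3.4 CPM in the Col-0 libraries, 3.04 and 2.81 in those of *somi2*, 454 and 444 in *mips1*, and 25.3 and 23.7 in the double mutant. *WRKY53* (AT4G23810), a regulator of leaf senescence, had 18.9 and 15 CPM in the Col-0 libraries, 36.4 and 36.7 in those of *somi2*, 233 and 235 in *mips1*, and 29.98 and 31 in the double mutant. Both peaked in *mips1*, with interactions of -3.86 and -4.06. *NAP* (AT1G69490), a NAC factor of senescence, had 52.2 and 43.1 CPM in the Col-0 libraries, 6.24 and 6.89 in those of *somi2*, 74.1 and 74.1 in *mips1*, and 6.19 and 6.11 in the double mutant. Both lines with *somi2* were low and their ranges were close, and the interaction was only -0.73 (SE 0.13, adjusted p = 3.4e-04). The positive gene was *ACD2*, with 0.27.

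The cell cycle list had the opposite sign. Of 29 genes, 28 were called positive and none negative, with a median of 1.53, and 24 reached 1 on the log2 scale. Of all tested genes, 30.8% were positive, and 12.9% were positive with a log2 of at least 1. Part of this list was picked by the study from these same libraries, so its direction is not independent evidence. The median *mips1* effect was -1.34 in Col-0 and 0.16 in *somi2*. In 27 of the 28 the effect was lost, as in 73.3% of all called genes. *CYCA1;1* (AT1G44110), a mitotic cyclin, had 3.58 and 4.04 CPM in the Col-0 libraries, 14.9 and 13.5 in those of *somi2*, 1.01 and 1.09 in *mips1*, and 16.7 and 16.2 in the double mutant. Both lines with *somi2* were high, *mips1* was below Col-0, and the interaction was 2.07 (SE 0.14, adjusted p = 8.8e-08). *KNOLLE* (AT1G08560), the syntaxin of the cell plate, had 8.88 and 10.9 CPM in the Col-0 libraries, 32.5 and 31.7 in those of *somi2*, 2.82 and 3.66 in *mips1*, and 34.6 and 36.6 in the double mutant, with an interaction of 1.75 (SE 0.16, adjusted p = 1.5e-06). *CDC20.1*, an activator of the anaphase-promoting complex, gave 1.91, *CDKB1;2* gave 1.99 and *AUR2* gave 1.92. The replication genes were lower in size, with *MCM2* to *MCM7* between 0.87 and 1.14 and *PCNA2* at 0.59. *CDKB2;2* did not pass, with 0.14. Of 10 flower and shoot apex markers, 6 passed the filter, with 3 called positive, the sign of the cell cycle list, and 1 negative. The shares of all tested genes were 30.8% and 31.2%. The median interaction of these markers was 1.03, and it ranged from 0.41 to 1.74 when 1 library was left out. Their summed level was 1.91 and 1.93 CPM in the Col-0 libraries, 11.3 and 9.89 in those of *somi2*, 2.56 and 2.57 in *mips1*, and 11.4 and 10.4 in the double mutant. Without *PI*, the negative one, the sum was 1.84 and 1.84 CPM in the Col-0 libraries, 11.2 and 9.78 in those of *somi2*, 0.601 and 0.711 in *mips1*, and 11.2 and 10.3 in the double mutant, lowest in *mips1* and high in both lines with *somi2*. *KNAT1*, a homeobox gene of the apex, had 0.119 and 0.0706 CPM in the Col-0 libraries, 4.06 and 3.84 in those of *somi2*, 0.0699 and 0.0729 in *mips1*, and 4.54 and 4.45 in the double mutant. *STM*, another one, had 0.0239 and 0.0118 CPM in the Col-0 libraries, 4.43 and 3.52 in those of *somi2*, 0 and 0.0182 in *mips1*, and 4.31 and 3.81 in the double mutant. Neither had a called interaction, at adjusted p of 0.51 and 0.76. The called positive ones were *AG* (1.57), *SEP3* (1.66) and *AP1* (3.74, with few counts in all lines). The part of apex tissue in the cell cycle values was not tested.

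Promoter letters were read for genes of this list because the mitotic genes moved together. The MSA core, AACGG on either strand, is the letter core of the mitosis-specific activator element that MYB3R factors bind. It lay in the 250 bases before the gene start in 13 of 29 cell cycle promoters (44.8%) and in 21.5% of 21484 promoters of tested genes, against 21.9% of those with a positive interaction. The other lists ranged from 0% (aliphatic glucosinolates) to 38.5% (inositol list, 5 of 13 promoters). The promoters of *KNOLLE* (chr1:2711001-2711250, minus strand), *CYCA1;1* (chr1:16777353-16777602, minus strand) and *CYCB1;1* (chr4:17624309-17624558, minus strand) are shown 5′ to 3′ up to the gene start, from RefSeq on TAIR10.1, with the motif in capitals:
KNOLLE: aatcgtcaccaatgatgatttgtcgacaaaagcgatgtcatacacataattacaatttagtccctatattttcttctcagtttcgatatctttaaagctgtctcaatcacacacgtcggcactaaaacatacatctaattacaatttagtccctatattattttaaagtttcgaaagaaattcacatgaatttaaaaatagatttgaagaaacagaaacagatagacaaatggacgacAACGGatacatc
CYCA1;1: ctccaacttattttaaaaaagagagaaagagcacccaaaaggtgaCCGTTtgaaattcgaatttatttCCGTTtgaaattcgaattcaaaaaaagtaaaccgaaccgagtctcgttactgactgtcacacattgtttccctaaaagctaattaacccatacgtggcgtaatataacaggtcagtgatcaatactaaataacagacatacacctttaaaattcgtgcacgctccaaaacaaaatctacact
CYCB1;1: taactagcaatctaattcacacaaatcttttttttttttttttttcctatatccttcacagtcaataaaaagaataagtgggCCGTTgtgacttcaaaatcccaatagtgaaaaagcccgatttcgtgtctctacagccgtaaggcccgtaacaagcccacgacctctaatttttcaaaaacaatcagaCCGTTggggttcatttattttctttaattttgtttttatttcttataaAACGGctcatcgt

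All 30 nuclear genes of the photosystems and their antennae were called positive, beside 30.8% of all tested genes. The list's median was 1.595, with a range from 1.18 to 2.31. *mips1* lowered all 30 in Col-0 (median -1.96) and still lowered 28 in *somi2* (median -0.35). In *somi2* it changed 19.3% of all tested genes, in either direction. The summed level of the 30 was 219110.0 and 210319 CPM in the Col-0 libraries, 125988 and 123004 in those of *somi2*, 52948 and 52736 in *mips1*, and 96489.7 and 94901 in the double mutant. *LHCB1.4* (AT2G34430), an antenna protein of photosystem II, had 11168 and 9568 CPM in the Col-0 libraries, 3718 and 3824 in those of *somi2*, 1422 and 1364 in *mips1*, and 2538 and 2473 in the double mutant. Col-0 was highest, *mips1* lowest, and *mips1 somi2* lay between *mips1* and *somi2*, with an interaction of 2.31 (SE 0.11, adjusted p = 2.1e-09). *PSAN* (AT5G64040), a subunit of photosystem I, had 3385 and 3825 CPM in the Col-0 libraries, 2112 and 1862 in those of *somi2*, 722 and 765 in *mips1*, and 1837 and 1935 in the double mutant, and its *mips1* effect in *somi2* was not called. The genes of *LHCB1* are near copies, so their shares of reads are uncertain.

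Of 27 Aux/IAA genes that passed the filter, of 28 listed, 17 were called positive and 1 negative, with a median of 1.03. These are repressors of auxin response, many of which auxin itself induces. Positive and negative genes made up 30.8% and 31.2% of all tested genes. *IAA29* (AT4G32280) had 25.4 and 23.9 CPM in the Col-0 libraries, 7.85 and 7.07 in those of *somi2*, 3.24 and 2.8 in *mips1*, and 5 and 4.92 in the double mutant, and all lines were apart, Col-0 highest and *mips1* lowest, with an interaction of 2.45 (SE 0.14, adjusted p = 1.2e-08). *IAA3* (1.70), *IAA6* (2.09) and *IAA5* (1.85) were also positive. *IAA10* was the negative gene, with -0.78. *IAA2* had similar effects on both backgrounds: it had 98.5 and 95.3 CPM in the Col-0 libraries, 49.1 and 47.3 in those of *somi2*, 55 and 60.5 in *mips1*, and 27.1 and 30.5 in the double mutant, and *mips1* lowered it, with a log2 effect of -0.75 in Col-0 and -0.74 in *somi2*, with an interaction of 0.00 (SE 0.11, adjusted p = 0.99). *IAA31* narrowly missed the threshold, at 2.69 on few counts.

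Genes of sphingolipid and very long chain fatty acid synthesis were positive in 14 and negative in 5 of 23, with a median of 1.00. The shares of all tested genes were 30.8% and 31.2%. Part of this list was picked by the study from these same libraries, so its direction is not independent evidence. *KCS5* (AT1G25450), an elongase of very long chain fatty acids, had 11.1 and 11.8 CPM in the Col-0 libraries, 36.2 and 32.4 in those of *somi2*, 3.66 and 3.37 in *mips1*, and 40.8 and 39.6 in the double mutant, and *mips1 somi2* lay above all lines with an interaction of 1.94 (SE 0.11, adjusted p = 1.6e-08). *KCS2* had 1.85, *KCS11* 1.58 and *SBH2*, a hydroxylase of sphingoid bases, 1.44. The ceramide synthase *LOH2* (AT3G19260) was the largest negative one, with 11.5 and 10.9 CPM in the Col-0 libraries, 9.83 and 10.5 in those of *somi2*, 32.9 and 32.9 in *mips1*, and 10.6 and 11.5 in the double mutant, with an interaction of -1.44 (SE 0.10, adjusted p = 1.2e-07). *LOH1* and *LOH3*, the other ceramide synthases, were not called, with -0.16 and -0.22.

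The inositol list was mixed, with 7 positive and 4 negative of 13 tested genes and a median of 0.56. Of all tested genes, 31.2% were negative, about the share in this list, and 30.8% were positive, below the share in this list. *MIPS2* and *MIPS3*, the other copies of the synthase, had interactions of -0.21 (not called) and 0.67. *VTC4*, an inositol monophosphatase, had 43.6 and 46.4 CPM in the Col-0 libraries, 46.1 and 44.4 in those of *somi2*, 25.3 and 28 in *mips1*, and 44 and 41.5 in the double mutant, with only *mips1* low. *MIOX4*, an inositol oxygenase, had 0 and 0.0353 CPM in the Col-0 libraries, 0.0552 and 0.0756 in those of *somi2*, 31.2 and 30.8 in *mips1*, and 0.158 and 0.177 in the double mutant. Only *mips1* was high, and no fold is given because Col-0 was at or under the limit of detection. *GOLS1* and *GOLS2*, which use inositol for galactinol, lay above all lines in *mips1 somi2*, with interactions of -0.68 and 0.60. *GOLS3* gave 2.11.

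**Figure D4:**
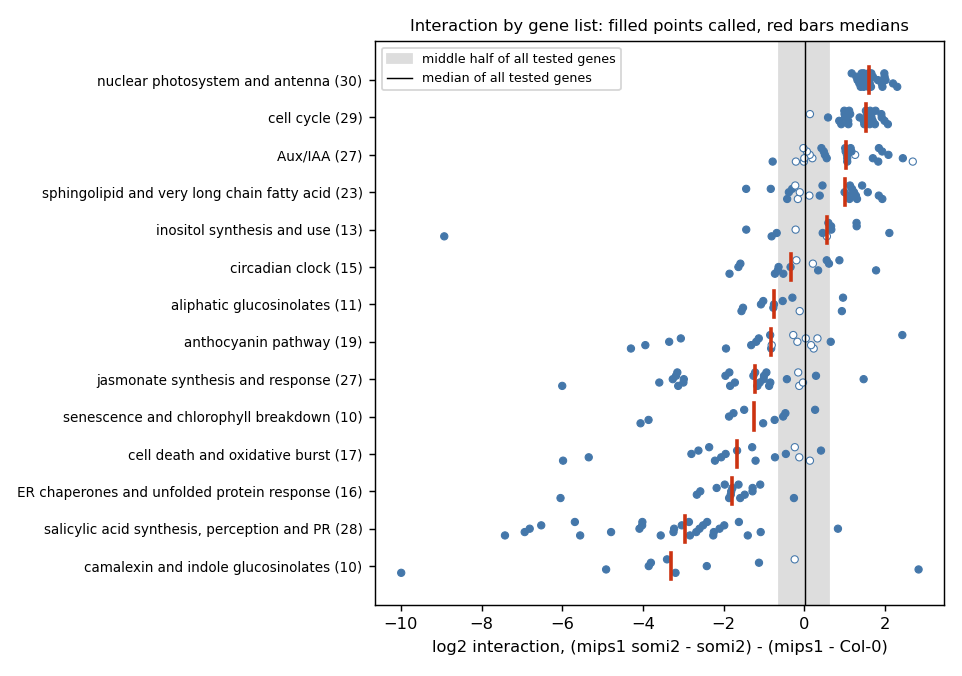
Log2 interaction (horizontal axis) of every tested member of each gene list (rows), with filled points for genes that passed the test, a red bar for the list's median and a grey band for the middle range (quartiles) of all tested genes. Genes with a line at the limit of detection, such as *MYB122* and *MIOX4*, are drawn at their fitted values, which are no bounds. The medians of the defence, chaperone and senescence lists lie left of 0, and those of the cell cycle and photosystem lists lie right of it.

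The anthocyanin pathway was the list whose sign depended on the scale. On the log2 scale, 10 of 19 genes were negative and 2 positive, with a median of -0.82, beside 31.2% and 30.8% of all tested genes. When each of the libraries had to hold 10 or more counts, 6 were negative and the median was -0.22, over fewer genes. Differences in CPM gave a positive median of 1.92 CPM, and 7 of the called genes changed sign. *DFR* (AT5G42800), dihydroflavonol reductase, had 0.382 and 0.424 CPM in the Col-0 libraries, 26.2 and 23.3 in those of *somi2*, 5.62 and 6.09 in *mips1*, and 36.5 and 32.9 in the double mutant. Each single mutant was above Col-0 and *mips1 somi2* was above all lines, with an interaction of -3.35 (SE 0.17, adjusted p = 4.6e-09). *LDOX* (AT4G22880), the next enzyme, had 0.287 and 0.576 CPM in the Col-0 libraries, 22.7 and 20.8 in those of *somi2*, 2.56 and 2.94 in *mips1*, and 30.9 and 35.1 in the double mutant, with the same order and -1.94 (SE 0.24, adjusted p = 2.1e-05). Of the 19 genes, 8 lay above all 3 other lines, beside 1.86% of all tested genes. Among the 8 were the regulators *MYB75* (-1.19) and *TT8* (-1.31). *EGL3*, another regulator, was positive at 2.43, and *CHS*, *F3H* and *CHI* were not called, with 0.17, 0.04 and 0.24. Over all genes, 76 called genes (0.512%) changed sign on the linear scale.

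Clock genes were split, with 8 negative and 5 positive of 15 and a median of -0.34, beside 31.2% and 30.8% of all tested genes. Several genes that peak in the evening were negative. *TOC1* (AT5G61380) had 48.4 and 48.2 CPM in the Col-0 libraries, 41.3 and 40.9 in those of *somi2*, 149 and 142 in *mips1*, and 35.5 and 33.1 in the double mutant. *ELF4* (AT2G40080) had 22 and 21 CPM in the Col-0 libraries, 9.41 and 9.3 in those of *somi2*, 44.4 and 44.4 in *mips1*, and 6.06 and 6.43 in the double mutant. *PRR5* (AT5G24470) had 40.7 and 47.4 CPM in the Col-0 libraries, 28.2 and 28.1 in those of *somi2*, 62 and 66.6 in *mips1*, and 13.8 and 13.6 in the double mutant. All 3 were highest in *mips1* and lowest in *mips1 somi2*, without overlap between these lines and the rest, with interactions of -1.85, -1.63 and -1.58. *LUX* was also below all lines (-0.65). *PRR9*, a morning gene, went the other way (1.78), and *CCA1* and *LHY* had 0.35 and -0.34. *GI* and *LNK1* were not called.

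The genes that lay farthest below all lines were on none of these lists. *BT2* (AT3G48360, chromosome 3, 17907767 to 17910738), a BTB and TAZ domain scaffold protein, had 102 and 80.05 CPM in the Col-0 libraries, 194 and 194 in those of *somi2*, 384 and 364 in *mips1*, and 9.67 and 9.86 in the double mutant. *mips1* raised it in Col-0 (log2 effect 2.04) and lowered it in *somi2* (log2 effect -4.31), so that *mips1 somi2* lay far under every other library, with an interaction of -6.36 (SE 0.15, adjusted p = 1.3e-11). *AT2G20670* (a DUF506 protein) had 208 and 187 CPM in the Col-0 libraries, 169.9 and 168 in those of *somi2*, 141 and 143 in *mips1*, and 24.2 and 21.7 in the double mutant, with an interaction of -2.40 (SE 0.11, adjusted p = 1.4e-09). *AT3G15450*, a protein with YGL and LRDR motifs, had 461 and 414 CPM in the Col-0 libraries, 275 and 275 in those of *somi2*, 558 and 593 in *mips1*, and 53.5 and 57.6 in the double mutant, with an interaction of -2.70 (SE 0.11, adjusted p = 6.7e-10). In both, only *mips1 somi2* stood apart by a wide gap. *AT5G35777*, an uncharacterized protein, had 9.07 and 10.1 CPM in the Col-0 libraries, 1.46 and 2 in those of *somi2*, 4.58 and 5.04 in *mips1*, and 0.206 and 0.266 in the double mutant. Its interaction was -1.88 on the log2 scale and positive in CPM. *AT3G29639*, also uncharacterized, had 0.121 and 0.148 CPM in *mips1 somi2* and an interaction of -2.01.

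The remaining members of the *BT2* family and the genes in the rest of this paragraph were chosen after their values were seen. *BT1* had 56.9 and 49.2 CPM in the Col-0 libraries, 54.7 and 55.7 in those of *somi2*, 82.2 and 81.5 in *mips1*, and 15 and 16.2 in the double mutant. *BT5* had 44.6 and 36.7 CPM in the Col-0 libraries, 25.5 and 24.4 in those of *somi2*, 103 and 103 in *mips1*, and 4.88 and 5.96 in the double mutant. In both, *mips1* was highest and *mips1 somi2* lowest, without overlap with the other lines. *BT4* had 159 and 138 CPM in the Col-0 libraries, 158 and 163 in those of *somi2*, 215 and 211 in *mips1*, and 86.6 and 99.8 in the double mutant. *BT3* had 6.18 and 6.16 CPM in the Col-0 libraries, 4.17 and 3.93 in those of *somi2*, 6.7 and 6.87 in *mips1*, and 3.11 and 3.24 in the double mutant. All 5 *BT* genes lay below all lines in *mips1 somi2*, beside 4.29% of all tested genes. The interactions were -2.45, -0.49, -1.302 and -3.55 for *BT1*, *BT3*, *BT4* and *BT5*. Among other such genes below all lines were *DIN10* (-1.75), *TPS11* (-2.62, a trehalose phosphate synthase homologue), *TCH4* (-4.15, a cell wall xyloglucan hydrolase), *ERF104* (-3.90), *DREB26* (-3.64), *CYP707A3* (-4.43, an abscisic acid hydroxylase), *RAV1* (-2.56) and *RAV2* (-2.70). The cold regulators *CBF1* and *CBF2* were below all lines too (-2.10 and -1.92), while *DREB1A* of the same family did not pass that test. It had 9.96 and 10.7 CPM in the Col-0 libraries, 2.26 and 2.21 in those of *somi2*, 3.19 and 4.15 in *mips1*, and 1.7 and 1.77 in the double mutant, with an interaction of 1.12 (SE 0.19, adjusted p = 2.7e-04). Both of its *mips1 somi2* libraries were the lowest, but the difference from *somi2* was not called (adjusted p = 0.1). *PHI-1*, at -6.53, was not outside, with 1.13 and 1.08 CPM in *mips1 somi2* beside 0.931 and 1.18 in Col-0.

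**Figure D5:**
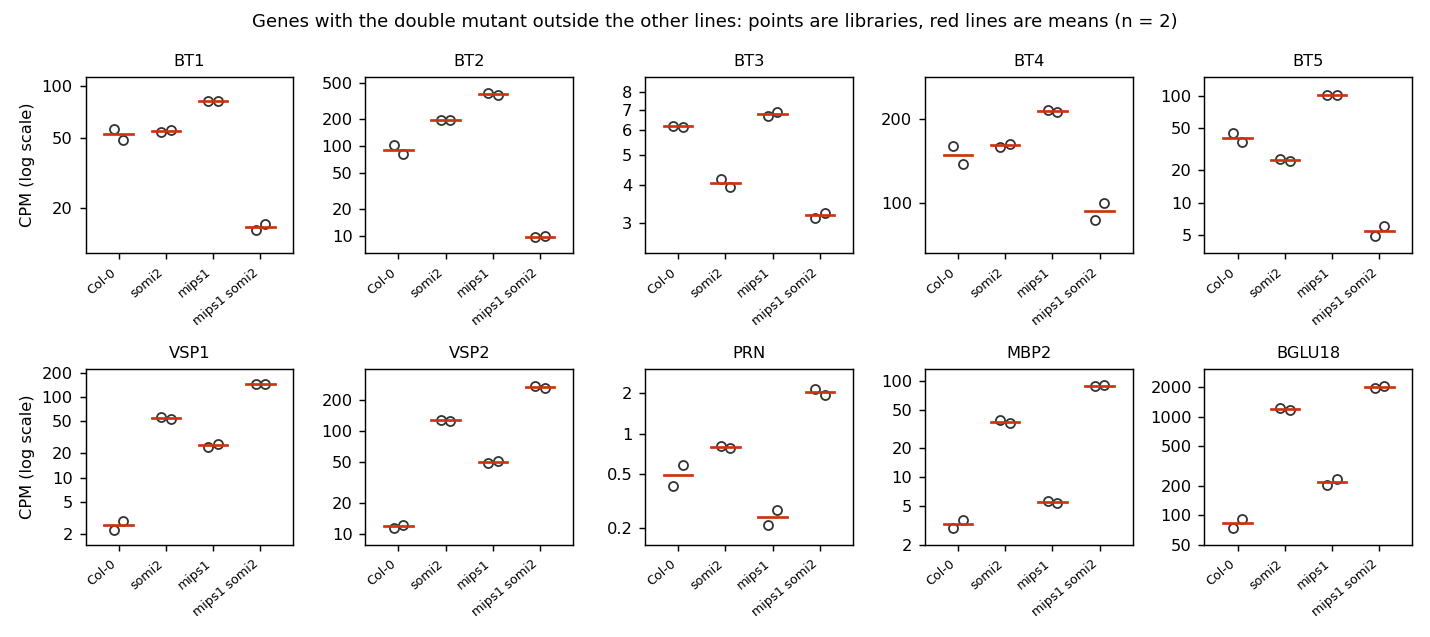
CPM (log axis) in each library (points) and mean of 2 libraries (red lines) for the *BT* genes and for genes that lie above all lines in *mips1 somi2*. In the upper row *mips1 somi2* is the lowest column in each panel, and in the lower row it is the highest.

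Evening element letters, AAATATCT on either strand, were searched because *BT2*, *TOC1* and *PRR5* were all highest in *mips1* and lowest in *mips1 somi2*. Their order differed in the *somi2* single mutant, where *BT2* lay above Col-0 while *TOC1* and *PRR5* lay below it. The motif lay in 8.11% of promoters of genes below all lines and in 4.94% of all tested promoters, and in 4 of 15 clock promoters (26.7%). The promoters of *BT2* (chr3:17910739-17910988, minus strand), *PRR5* (chr5:8358547-8358796, minus strand) and *TOC1* (chr5:24674713-24674962, plus strand) are shown as above, from TAIR10.1, with the motif in capitals:
BT2: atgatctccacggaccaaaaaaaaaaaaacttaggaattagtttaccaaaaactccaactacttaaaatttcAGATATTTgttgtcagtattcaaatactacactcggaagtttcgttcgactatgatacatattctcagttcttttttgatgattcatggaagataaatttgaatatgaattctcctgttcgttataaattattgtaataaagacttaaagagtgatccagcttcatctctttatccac
PRR5: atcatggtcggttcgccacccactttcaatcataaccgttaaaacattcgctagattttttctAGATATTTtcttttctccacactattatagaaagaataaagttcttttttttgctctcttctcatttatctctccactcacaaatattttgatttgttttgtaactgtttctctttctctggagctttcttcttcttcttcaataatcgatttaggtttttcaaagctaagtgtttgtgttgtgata
TOC1: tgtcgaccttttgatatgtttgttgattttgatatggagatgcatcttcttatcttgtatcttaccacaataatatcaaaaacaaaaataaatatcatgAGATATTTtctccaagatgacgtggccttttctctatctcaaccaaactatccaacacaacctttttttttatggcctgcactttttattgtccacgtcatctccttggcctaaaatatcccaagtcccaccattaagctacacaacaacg

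A defence motif was read at *NAC090* (chr5:7410103-7410352, minus strand), one of the 10 largest negative interactions. The W-box, here TTGACC or TTGACT on either strand, is bound by WRKY factors and lay in 28.4% of all tested promoters, in 35.1% of those with a negative interaction, in 23.5% with a positive one and in 21.4% of the salicylic acid list. The motif is in capitals:
NAC090: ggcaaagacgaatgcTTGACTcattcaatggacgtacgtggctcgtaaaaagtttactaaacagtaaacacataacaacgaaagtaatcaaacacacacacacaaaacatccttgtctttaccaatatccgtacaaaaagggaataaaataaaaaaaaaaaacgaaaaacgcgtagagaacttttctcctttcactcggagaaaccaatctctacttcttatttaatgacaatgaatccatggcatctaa

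The genes highest above all lines came next, in the order of their distance to the nearest line. *PGL5*, a 6-phosphogluconolactonase, had 2.48 and 2.39 CPM in the Col-0 libraries, 33.8 and 33.7 in those of *somi2*, 5.93 and 5.89 in *mips1*, and 95.1 and 101 in the double mutant, but its interaction of 0.25 (SE 0.10, adjusted p = 0.049) was small and lost its call in 11 of the alternatives tried. *NUDT24* had 0.382 and 0.353 CPM in the Col-0 libraries, 1.38 and 0.998 in those of *somi2*, 0.266 and 0.483 in *mips1*, and 2.96 and 3.46 in the double mutant, with an interaction of 1.33 (SE 0.40, adjusted p = 0.011). *VSP1*, a vegetative storage protein that follows jasmonate, had 2.24 and 2.88 CPM in the Col-0 libraries, 57 and 53 in those of *somi2*, 24 and 26.2 in *mips1*, and 145 and 145 in the double mutant. Each single mutant raised it and the double mutant more, while the log2 interaction was -1.86 (SE 0.13, adjusted p = 1.0e-07) and the linear one positive. *PRN*, a pirin, had 0.406 and 0.588 CPM in the Col-0 libraries, 0.814 and 0.786 in those of *somi2*, 0.21 and 0.273 in *mips1*, and 2.16 and 1.94 in the double mutant. Only *mips1 somi2* was high, with an interaction of 2.42 (SE 0.34, adjusted p = 5.3e-05). *MBP2*, a myrosinase-binding protein, had 2.96 and 3.64 CPM in the Col-0 libraries, 38.9 and 36.4 in those of *somi2*, 5.65 and 5.48 in *mips1*, and 88.7 and 89.6 in the double mutant, with an interaction of 0.51 (SE 0.12, adjusted p = 0.0028). Chosen after their values were seen, *VSP2*, *JAL23*, *BGLU18* and *BAM5* showed the *VSP1* order, with interactions of -1.01, -0.73, -0.62 and -0.51.

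A pair of iron genes was also named after their values were seen. *FER4* (AT2G40300), ferritin, had 48.2 and 57.7 CPM in the Col-0 libraries, 18.2 and 16.3 in those of *somi2*, 53.9 and 55.1 in *mips1*, and 36.9 and 38.5 in the double mutant. The effect of *mips1* was not called in Col-0 (log2 0.04) and was 1.13 in *somi2*, with an interaction of 1.09 (SE 0.12, adjusted p = 7.5e-06). *NEET* (AT5G51720), an iron-sulfur cluster protein, had 121 and 107 CPM in the Col-0 libraries, 8.56 and 9.28 in those of *somi2*, 28.2 and 28.1 in *mips1*, and 20.3 and 21.9 in the double mutant. *mips1* lowered it in Col-0 (log2 effect -2.02) and raised it in *somi2* (log2 effect 1.24), and the interaction was 3.26 (SE 0.11, adjusted p = 2.0e-10).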

How the data were processed

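Poly(A) RNA of rosette leaves was sequenced as single-end reads. The authors trimmed reads (Trimmomatic), mapped them to TAIR10 with STAR 2.7.0d and counted them per Araport11 gene with featureCounts 1.6.3, without strand and with multi-mapping reads, so near copies and antisense partners may share reads. The deposited raw counts were analysed here. The deposited normalized counts and the authors' own comparisons (log2 fold changes and p-values) were not used.

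Of 37336 genes, 37051 (99.2%) matched RefSeq for symbol and position, and filterByExpr kept 23916, of which 140 are organelle genes. Counts were scaled by TMM and tested in 1 model of all 8 libraries by edgeR 4.0.16 (quasi-likelihood test) in R 4.3.3 (limma 3.58.1; common dispersion 0.00726, 4 residual degrees of freedom), with Benjamini-Hochberg adjustment over all tested genes at 0.05. A gene was at neither single mutant's level nor the sum where the interaction and both differences of *mips1 somi2* from a single mutant passed. It was outside all lines where the difference from Col-0 passed as well and the level was highest or lowest.

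Genes named were the 10 largest interactions in each direction and the 5 farthest above and below all lines, among called genes that held 10 or more counts in each library, a mean scaled count of at least 50 and 1 sign in all 16 choices of 1 library per line (13403 genes), then *MIPS1*, *BIG* and members of the gene lists with the largest interactions first. Other genes, including further list members such as *ICS1*, *EDS1* and *PAD4*, were chosen after their values were seen. The members, lists and motifs were chosen with earlier results of these data known. Of 299 list entries, 292 matched by symbol and the rest by gene ID.

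On simulated counts with 200 genes changed 2-fold in the interaction, 181 (90.5%) were recovered in 189 calls, of which 4.23% were false, and unchanged data gave 0 calls. Apart from the changed genes, the simulated lines shared the same mean per gene, and all had the same spread. By the chi-square given above, the real Col-0 replicates differed more than those of the other lines, so these rates may not hold for these libraries. Alternatives were DESeq2 1.42.0, other scalings and filters, thinned counts, a minimum log2 of 1, the linear CPM scale, a replicate block and leaving out each library. Promoters are the 250 bases before the gene start in RefSeq on TAIR10.1. The G-box and site II motifs were searched as well, and every motif was searched in all gene lists. Tables and figures used Python 3.11.15, pandas 2.3.3, numpy 2.4.6 and matplotlib 3.10.9.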

Additional observations from a re-analysis of the deposited data

Results flagged for a closer look

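The effect of *mips1* differed between the Col-0 and the *somi2* backgrounds by the interaction term of edgeR's quasi-likelihood test, positively in 7377 genes and negatively in 7463. By class, the *mips1* effect was lost in 10880 of these genes, reduced in 1902, reversed in 1243, gained in 393 and enhanced in 78, and in 344 neither effect alone was called.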

How the results depend on the processing

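For 138 named genes, 2300 of 2337 values under an alternative kept sign and call, 20 lost and 7 gained the call, and 10 changed sign, all of these on the linear CPM scale. Many of these genes were picked for large interactions, and the ranked ones also for a constant sign across libraries. Their stability therefore says little about the other genes. With a minimum log2 of 1, 3097 genes were positive, 3905 negative, 585 at neither single mutant's level nor the sum and 151 outside all lines. The count of 3370 genes ranged from 1604 to 5262 when 1 library was left out, and the 1470 genes outside all lines from 734 to 2222; 1587 of the 3370 remained without the first *somi2* library. DESeq2 called 6744 and 6927 genes, and 2754 of the 3370 remained. Scaling by library size alone gave 5404 and 9642. On the linear CPM scale these changed sign: the anthocyanin median (1.92 CPM), *VSP1* (67.7), *AT5G35777* (3.29), *UGT79B1* (3.57), *DFR* (4.54), *5MAT* (2.31), *LDOX* (8.95), *VSP2* (101), *JAL23* (123), *BGLU18* (688) and *BAM5* (23.9). The root marker median became -0.28 with at least 10 counts in every library, since fewer genes were tested. The cause of the other shifts was not tested. With the replicate number as a block, 7155 genes were positive, 7301 negative, 3078 at neither level nor the sum and 1328 outside all lines. Same-numbered libraries had deviations correlated from -0.42 to 0.40, so the numbers gave no consistent pairing. Whether libraries shared a batch under another numbering was not tested. Genes with few counts in Col-0 have uncertain interactions, and 450 called genes had a line at or under 3 counts.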

Other observations

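Flower organ markers were low. *PI*, a floral homeotic gene, had 0.0716 and 0.0941 CPM in the Col-0 libraries, 0.124 and 0.106 in those of *somi2*, 1.96 and 1.86 in *mips1*, and 0.182 and 0.0887 in the double mutant, and its interaction of -4.17 (adjusted p = 5.5e-05, edgeR) was called. *AG* had an interaction of 1.57, with *mips1* lowest at 0.294 and 0.264 CPM.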
